A study of Mus musculus with 32 samples.

Results

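Between 1 d and 3 d post denervation, GAS muscle (the gastrocnemius of the calf) raised transcripts of 4 acetylcholine receptor subunits, of 9 of 21 myogenic regulators and of 15 of 25 embryonic, cardiac and stretch-responsive sarcomere genes, while those of the adult epsilon subunit, of 15 of 29 glycolysis genes, 10 of 22 calcium release genes and 9 of 27 adult fast sarcomere genes fell. The comparison sets the 4 samples of 3 d against the 4 samples of 1 d, which are 8 of the 32 samples of the series, and covers every gene that reached an FPKM of 0.1 in 4 or more of these 8 samples. This held for 17596 of the 33397 genes in the deposited table. Of the genes counted above as raised, Chrng, Mymk and Krt8 passed this filter only through the samples of 3 d. FPKM counts fragments per kilobase of exon and scales them to sequencing depth, so levels of different genes can be compared within a sample. Between samples it does not sum to a constant, and other scalings are given where they change a count.

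All 8 samples came from GAS muscle of young adult male C57BL/6 mice after sciatic nerve transection of the left hind leg. A piece of the nerve was removed, so the muscle lost its motor and sensory supply together, and the labels list no transgene or drug. The 4 day 0 samples serve only as a background level. Their labels list the nerve transection as well, the table calls their columns by another letter than the labels do, and they were taken as day 0 because every other column names its day. The labels' extraction text speaks of retinas, although tissue and source are given as muscle. Of the 9 photoreceptor markers found in the table, 0 passed the filter, and their summed FPKM was 0.0350 to 0.258 over the 8 samples. The labels do not say which animals the samples came from, so the p-values measure the spread between these samples. The samples are called D1a to D1d and D3a to D3d, as in the table. Its letters could be tied to a time point but not to a single labelled sample.

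A muscle fibre that is in contact with its motor axon keeps acetylcholine receptors at the synapse only, makes the adult epsilon subunit there and silences the receptor genes elsewhere. Once the nerve is lost and electrical activity stops, class II histone deacetylases and myogenin are known to switch the receptor genes on along the whole fibre, with the fetal gamma subunit in place of epsilon. Denervated fibres also break down myofibrils through the ubiquitin-proteasome system (UPS) and autophagy, and the cut nerve stump inside the muscle loses its axons while its Schwann cells change to a repair state.

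Recovered depth was similar at both times, at 14199901 to 16511953 fragments per sample at 1 d and 15318073 to 16875439 at 3 d (two-sided exact permutation p = 0.257). Mitochondrial transcripts took 12.2% to 17.1% of the fragments at 1 d and 9.95% to 13.5% at 3 d (exact permutation p = 0.0857, where the smallest possible p is 0.0286). Sample D3a stood apart from the rest of its group. Its Pearson's r across 11659 genes was 0.959 to 0.976 with D3b, D3c and D3d, against 0.985 to 0.989 among these 3, and limma's estimate of sample quality gave it a weight of 0.27. D3a shared most of the muscle changes, but its summed macrophage transcripts lay within the range of 1 d, which the other 3 samples exceeded, and its summed matrix and Schwann cell transcripts below that range, where those of the other 3 did not lie, so the results it touches are given with and without it. In a look taken after these values had been seen, D3a lay above every sample of 1 d in 73.1% of the 1792 genes called higher without it, and below every one in 97.4% of the 776 called lower. In bulk tissue, fewer cells of a type and less RNA per cell cannot be told apart.

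At a Benjamini-Hochberg adjusted p under 0.05 (limma on log2(FPKM + 1)) and a change of at least 1.5-fold, 1364 genes were higher and 807 were lower at 3 d. These are 7.75% and 4.59% of the genes tested, and the median log2 fold change of all tested genes was 0.02. The counts of some lists below came near these shares, among them the ubiquitin ligase, chemokine and inflammasome lists. Such counts do not set the list apart from the other genes tested. Of the called genes, 1740 of 2171 were protein coding, and in 1277 of the higher and 790 of the lower genes every sample of 3 d lay beyond every sample of 1 d. Such full separation was seen in 30.5% of all genes tested, and upwards in 16.5%. Without D3a, 10.4% of 17230 genes were higher and 4.5% lower. The split between higher and lower genes, 62.8% higher with the deposited values, was 50.9% after quantile normalization and 52.3% after rescaling to TPM without mitochondrial genes. The call was the same in all 21 other fits for 826 of the higher and 584 of the lower genes.

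**Figure D1:**
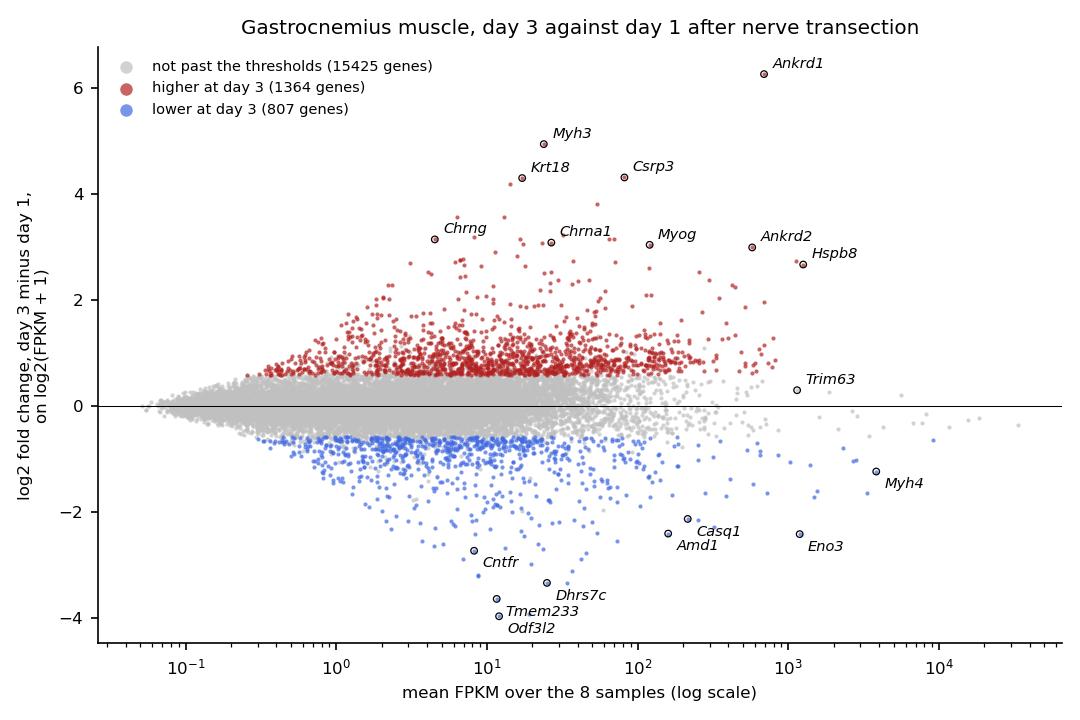
Log2 fold change of each of the 17596 tested genes (day 3 minus day 1, on log2(FPKM + 1)) against its mean FPKM over the 8 samples on a log axis. Red points are the 1364 genes called higher and blue points the 807 called lower. Ankrd1 stands highest and Odf3l2 lowest, and the range of possible changes narrows below an FPKM of 1, where the added 1 damps the fold.

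Receptor subunit transcripts moved in both directions within these 2 days. Of 18 tested genes of the receptor and the synapse, 10 were higher and 1 was lower, with a median log2 fold change of 0.76. The 10 include Chrng, which passed the filter only through the samples of 3 d. Chrna1, the ligand-binding alpha subunit (chromosome 2, 73563215 to 73580338, GRCm38), had an FPKM of 4.11, 4.95, 4.56 and 4.29 in the samples of 1 d and 24.6, 38.5, 61.01 and 71.98 in those of 3 d (log2 fold change 3.08, standard error 0.29, adjusted p = 7.88e-05). The 1 d samples began where day 0 ended (3.02–4.11), and each sample of 3 d lay far above them, D3a the least. Chrng, which encodes the fetal gamma subunit (chromosome 1, 87204657 to 87212694), had 6 fragments in the 4 samples of 1 d together and 2471 in those of 3 d. Its FPKM was 0.0338, 0.0312, 0.0298 and 0 at 1 d and 3.83, 6.16, 11.02 and 14.96 at 3 d. Chrng, like Mymk, Krt8 and Olig1 described later, was under 0.1 FPKM in every sample of 1 d, so it passed the filter only through the samples of 3 d and was not tested when any of these was left out. Its values are therefore given without a p. Of the 1364 genes called higher, 22 passed in this way, and 11 of the 807 called lower passed only through the samples of 1 d. Chrnd, the delta subunit gene just upstream of Chrng on the same strand (87190607 to 87200070), went from 0.792, 0.909, 1.04 and 0.608 to 5.202, 9.71, 16.9 and 19.99 (log2 fold change 2.78, standard error 0.34, adjusted p = 3.57e-04). For these 3 subunits the order of the samples of 3 d was the same, with D3a lowest and D3d highest.

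Chrnb1, the beta subunit, lay above day 0 (10.7–12.5) in every sample of 1 d (23.7, 22.5, 19.96 and 18.3) and reached 56.1, 47.9, 52.95 and 57.2 at 3 d (log2 fold change 1.31, standard error 0.09, adjusted p = 2.33e-05). Chrne, the adult epsilon subunit, moved the other way. It fell from 4.46, 4.31, 4.81 and 3.799 to 0.8498, 1.03, 1.09 and 1.999 (log2 fold change -1.28, standard error 0.15, adjusted p = 3.35e-04), with no overlap between the groups. At 3 d the mean FPKM of Chrng was 8.99 ± 4.98 (SD, n = 4) and that of Chrne 1.24 ± 0.515, whereas at 1 d they were 0.0237 ± 0.0159 and 4.34 ± 0.4201. Musk, the receptor kinase that anchors the synapse, rose from 24.4, 23.8, 32.3 and 29.1 to 71.9, 56.6, 58.6 and 60.7 (log2 fold change 1.15, adjusted p = 1.13e-04), and its activator Dok7 from 2.904–3.84 to 9.14–13.2 (log2 fold change 1.39, adjusted p = 5.93e-05). Ncam1, the adhesion molecule that spreads over denervated fibres, rose from 0.2601–0.412 to 1.65–4.74 (log2 fold change 1.65, adjusted p = 4.56e-04). Lrp4, the agrin receptor, and Erbb3, a neuregulin receptor, both rose by 0.90 on the log2 scale, and Etv5, a transcription factor of synaptic nuclei, by 0.63, although its call was lost without D3b.

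Promoters of the subunit genes and of Myog are shown because E-boxes (CANNTG on both strands), the sites that MyoD and myogenin bind, are known to carry the denervation response of receptor genes. The sequences are the 250 bases upstream of the RefSeq start in GRCm38.p6, 5′ to 3′ on the gene's strand, with each E-box in capitals. They cover chr2:73580339-73580588 (minus strand) for Chrna1, chr11:69795938-69796187 (minus) for Chrnb1, chr1:87205561-87205810 (plus) for Chrng, whose RefSeq start lies inside the GENCODE gene span given above, chr11:70619195-70619444 (minus) for Chrne and chr1:134289754-134290003 (plus) for Myog.
Chrna1: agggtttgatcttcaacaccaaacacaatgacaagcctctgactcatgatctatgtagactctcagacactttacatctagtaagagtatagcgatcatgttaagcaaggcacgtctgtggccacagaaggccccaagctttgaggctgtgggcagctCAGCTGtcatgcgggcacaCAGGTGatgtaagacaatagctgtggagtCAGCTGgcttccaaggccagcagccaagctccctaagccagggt
Chrnb1: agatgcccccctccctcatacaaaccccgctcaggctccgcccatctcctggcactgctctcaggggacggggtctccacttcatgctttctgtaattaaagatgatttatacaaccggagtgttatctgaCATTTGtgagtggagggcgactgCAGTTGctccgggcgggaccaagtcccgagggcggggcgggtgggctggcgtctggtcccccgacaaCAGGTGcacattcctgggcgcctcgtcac
Chrng: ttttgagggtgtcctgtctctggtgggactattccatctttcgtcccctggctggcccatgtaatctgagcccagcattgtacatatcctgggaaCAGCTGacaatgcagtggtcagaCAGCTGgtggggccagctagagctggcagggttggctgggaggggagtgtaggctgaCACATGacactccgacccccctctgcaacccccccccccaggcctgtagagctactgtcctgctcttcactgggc
Chrne: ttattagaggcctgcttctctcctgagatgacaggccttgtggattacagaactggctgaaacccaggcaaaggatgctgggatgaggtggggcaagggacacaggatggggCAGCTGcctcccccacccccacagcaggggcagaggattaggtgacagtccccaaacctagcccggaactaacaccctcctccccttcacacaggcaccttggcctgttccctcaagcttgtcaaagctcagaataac
Myog: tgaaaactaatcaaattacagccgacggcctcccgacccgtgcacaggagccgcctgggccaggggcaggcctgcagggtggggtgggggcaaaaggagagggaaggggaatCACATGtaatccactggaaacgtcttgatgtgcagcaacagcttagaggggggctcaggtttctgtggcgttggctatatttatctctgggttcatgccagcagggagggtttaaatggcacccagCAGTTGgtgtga
The windows of Chrna1, Chrnb1 and Chrng, whose genes rose, held 3 E-boxes each, that of Myog 2 and that of Chrne, whose gene fell, 1. In Chrna1 they began at -92, -73 and -44 from the start, in Chrnb1 at -119, -96 and -29, in Chrng at -155, -132 and -75, in Myog at -138 and -12, and in Chrne at -138. Of all 32851 RefSeq windows of this length, 66.2% held at least 1 E-box, 31.8% at least 2 and 12.2% at least 3. At least 3 were found in 8.29% of 868 windows of genes called higher, 9.27% of 572 windows of genes called lower and 7.31% of the 11540 windows of tested genes. A match describes these letters and is not a test of binding.

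Of 21 tested myogenic regulators, 9 were higher, 1 was lower and 11 did not pass (median log2 fold change 0.26). The 9 include Mymk, which passed the filter only through the samples of 3 d. Myog, or myogenin, which switches muscle differentiation genes on, had an FPKM of 28.8, 20.7, 27.4 and 24.02 at 1 d and 165, 218, 236 and 241 at 3 d (log2 fold change 3.04, standard error 0.14, adjusted p = 3.72e-06), from 1.61–2.58 at day 0. Myf6, the regulator most abundant in adult fibres, rose from 292, 229.8, 319 and 294 to 1123, 1027, 1094 and 1168 (log2 fold change 1.96, standard error 0.11, adjusted p = 7.38e-06). Myod1, the regulator of satellite cells and fast fibres, rose from 40.8, 29.4, 25.5 and 19.4 to 49.8, 80.2, 56.2 and 55.05 (log2 fold change 1.07, adjusted p = 0.00633). At 1 d its values lay above day 0 (6.03–9.54).

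Mymk and Mymx, the membrane proteins that fuse myoblasts, came from the floor. Mymk had 0 fragments in each sample of 1 d, where 3 fragments are the limit that a count of 0 allows, and 1.99, 5.18, 7.48 and 10.1 FPKM at 3 d. Against that limit in each sample, it was at least 48.3-fold higher. Mymx had an FPKM of 0, 0.253, 0.0604 and 0.05897 at 1 d and 2.35, 4.83, 4.19 and 6.87 at 3 d (log2 fold change 2.29, adjusted p = 1.19e-04). Runx1, a transcription factor that protects denervated fibres, rose from 2.82, 1.61, 1.71 and 1.88 to 9.16, 10.8, 14.1 and 15.6 (log2 fold change 2.15, standard error 0.18, adjusted p = 4.60e-05). Id1 and Id3, which block myogenic factors from binding DNA, both rose by 0.81 on the log2 scale. Dach2, the repressor of Myog that keeps innervated fibres quiet, fell from 0.657, 1.01, 0.824 and 0.914 to 0.106, 0.139, 0.124 and 0.1201 (log2 fold change -0.72, standard error 0.08, adjusted p = 1.54e-04). Hdac4, which represses Dach2, stood at 4.89–6.13 at 1 d and 7.72–9.77 at 3 d, and its call (log2 fold change 0.60) was lost in 5 of the 21 other fits, namely after median-ratio scaling or quantile normalization and without D1a, D3c or D3d.

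**Figure D2:**
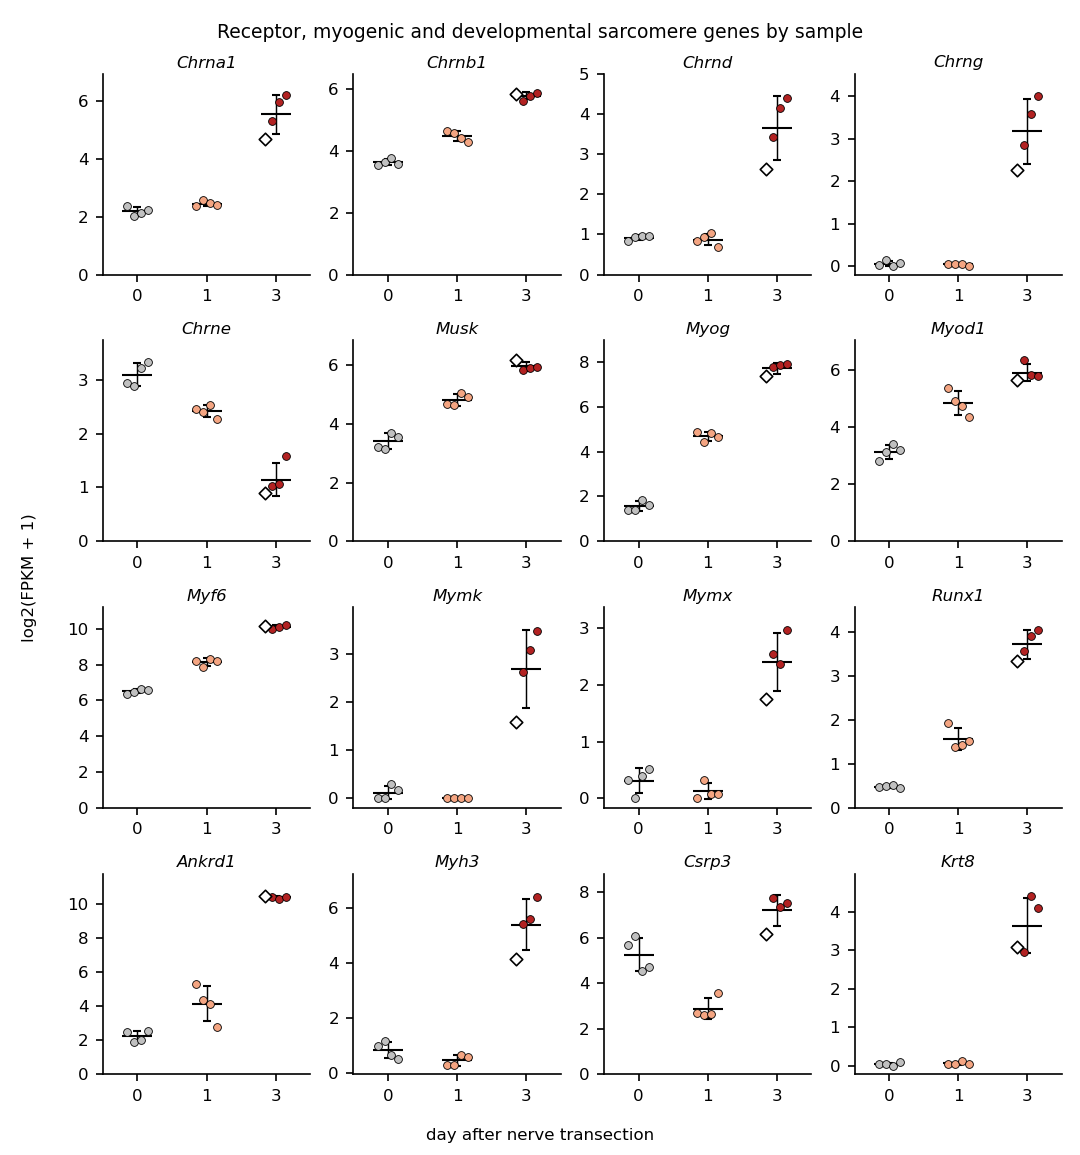
Level of 16 genes of the receptor, the myogenic programme and the developmental sarcomere, on log2(FPKM + 1), in each sample at day 0, 1 and 3. Points are samples, the open diamond is D3a, and bars show the mean and SD of 4 samples. Each gene but Chrne, which fell, was higher in every sample of day 3 than in every sample of day 1, and D3a was the lowest of its group for Chrna1, Chrnd, Chrng, Myog, Myod1, Mymk, Mymx, Runx1, Myh3 and Csrp3.

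The sarcomere showed both directions. Among genes of the embryonic, cardiac and stretch-responsive sarcomere, 15 of 25 were higher and 1 was lower (median log2 fold change 1.02), and among adult fast sarcomere genes 9 of 27 were lower and 2 higher (median -0.39). The 15 include the keratin gene Krt8, which passed the filter only through the samples of 3 d. The gene with the largest change on this scale among those tested was Ankrd1, a titin-binding ankyrin repeat protein of the stretch response (chromosome 19, 36111961 to 36120099), at 38.9, 19.9, 16.3 and 5.94 FPKM at 1 d and 1431, 1376, 1248 and 1387 at 3 d (log2 fold change 6.25, standard error 0.43, adjusted p = 1.85e-05). Day 0 held 2.79–4.96, and the 4 samples of 3 d were close to each other. Its relative Ankrd2 rose from 111, 106, 157 and 136 to 779.5, 1310, 1010 and 998 (2.99 on the log2 scale, adjusted p = 8.50e-06). Csrp3, the muscle LIM protein of the Z-disc, was at 5.56, 5.04, 5.37 and 10.9 at 1 d, below day 0 (22.3–66.3), and at 71.7, 210.2, 163 and 182 at 3 d (log2 fold change 4.31, standard error 0.34, adjusted p = 3.53e-05). Xirp1 and Flnc, which gather at sites of filament damage, rose by 2.61 and 1.56 on the log2 scale, and Nrap, which serves myofibril assembly, by 1.02.

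Myh3, the embryonic myosin heavy chain, lies at the upstream end of the skeletal myosin cluster on chromosome 11 (67078300 to 67102291), followed by Myh2, Myh1 and Myh4 (67238029 to 67260446) on the same strand. Its FPKM was 0.209, 0.225, 0.574 and 0.5099 at 1 d and 16.8, 41.6, 47.5 and 83.3 at 3 d (log2 fold change 4.94, standard error 0.39, adjusted p = 3.58e-05). Myh4, the fast 2B chain that dominates this muscle, fell from 5569, 5004, 5882 and 5015 to 2907, 2045, 2067 and 2185 (log2 fold change -1.23, standard error 0.16, adjusted p = 4.34e-04), and Myh1, the 2X chain, from 406, 398, 399 and 506 to 111, 147, 153 and 135 (log2 fold change -1.64, standard error 0.12, adjusted p = 2.79e-05). By mean FPKM at 3 d, Myh3 stood at 47.3 and Myh4 at 2301. Myh2, the 2A chain, was lower in every sample of 3 d (19.96, 87.2, 83.7 and 106, from 137, 138, 183 and 199) but missed the threshold (adjusted p = 0.0575), with D3a far below the other 3. Without D3a Myh2 was called lower (log2 fold change -0.81, adjusted p = 0.00412), and also in other fits, among them those after median-ratio scaling or quantile normalization and without D3d. Other developmental members that rose were Myl4, the embryonic light chain (log2 fold change 2.44), Mybph (log2 fold change 2.37) and Tnnt2, cardiac troponin T (log2 fold change 1.01). Actc1, cardiac actin, fell from 46.7, 57.9, 48.8 and 21.4 to 10.01, 11.1, 12.9 and 21.1 (log2 fold change -1.57, adjusted p = 0.00573). Among the adult fast genes that fell were the calcineurin-binding Z-disc proteins Myoz3 (27.8–33.1 to 4.44–5.51, log2 fold change -2.45) and Myoz1 (log2 fold change -1.47), the protease-like Ky (log2 fold change -2.29) and Tpm1, a tropomyosin (log2 fold change -1.11). Pdlim3, a Z-disc adaptor, rose from 125, 139, 142 and 139 to 578, 527, 556 and 583 (log2 fold change 2.04, standard error 0.07, adjusted p = 1.84e-06), and Actn2 by 0.67 on the log2 scale, a call lost after quantile normalization and without D3b.

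The keratins Krt8 and Krt18, filament proteins best known from simple epithelia and encoded by neighbouring genes on chromosome 15, rose from near the floor. Krt18 (102028180 to 102032027) was at 0.735, 0.588, 0.389 and 0.506 at 1 d and 21.9, 13.6, 52.4 and 46.9 at 3 d (log2 fold change 4.30, standard error 0.37, adjusted p = 5.53e-05), and Krt8 (101996698 to 102004482) at 0.03597, 0.0332, 0.0951 and 0.0309 and 7.54, 6.81, 20.04 and 16.1, given without a p because it passed the filter only through the samples of 3 d. For both, D3c and D3d were above D3a and D3b. A gene on the other strand shares 101 exonic bases with Krt8, and whether the counting used the strand is not given in the sources used here. The other intermediate filaments of muscle, desmin (Des) and nestin (Nes), rose by 0.88 and 1.37 on the log2 scale.

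Slow fibre genes, a small share of this muscle, gave 1 higher and 1 lower of 9, with 3 higher without D3a and 2 lower without D3d. Myl3, the slow light chain, fell from 56.7, 88.5, 86.1 and 72.2 to 14.3, 31.8, 25.2 and 36.6 (log2 fold change -1.51, adjusted p = 0.00279). Tnni1, slow troponin I, stood at 5.32, 5.62, 4.34 and 2.24 and 5.005, 10.99, 11.1 and 16.2, and its call as higher (log2 fold change 1.09) was lost in 8 of 21 other fits, among them those without any 1 sample except D1b or D3a. Myh7, the slow myosin, was at 6.997, 7.21, 8.06 and 4.31 at 1 d and 1.5, 3.25, 4.78 and 5.83 at 3 d and did not pass (adjusted p = 0.11).

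In excitation-contraction coupling, a depolarized membrane releases calcium from the sarcoplasmic reticulum (SR). Of 22 tested genes of this list, 10 were lower, 3 were higher and 9 did not pass (median log2 fold change -0.40). Dhrs7c, an SR membrane dehydrogenase, fell from 50.2, 51.1, 43.8 and 40.1 to 4.63, 3.85, 2.94 and 3.44 (log2 fold change -3.33, standard error 0.12, adjusted p = 1.88e-06) after day 0 values of 95.6–102. Casq1, the main calcium buffer inside the SR, fell from 403, 397, 314 and 283 to 57.8, 66.4, 97.1 and 101 (log2 fold change -2.13, standard error 0.20, adjusted p = 8.08e-05). Parvalbumin (Pvalb), the cytosolic buffer of fast fibres, fell from 5582, 5671, 4659 and 4151 to 1819, 1051, 1803 and 1885 (log2 fold change -1.64, adjusted p = 5.35e-04). The junctophilin Jph2, which ties the SR to the T-tubule, and the SR proteins Hrc, Mrln and Trdn fell by 1.53, 1.42, 1.18 and 1.06 on the log2 scale. The fast calcium pump Atp2a1 had a log2 fold change of -1.02, but not past the thresholds after quantile normalization. The members that rose moved against this. Sln (sarcolipin), a small inhibitor of the pump, went from 2.19, 1.58, 2.26 and 1.42 to 21.1, 27.4, 13.9 and 21.2 (log2 fold change 2.91, standard error 0.19, adjusted p = 1.44e-05), and Cacng1, the gamma subunit of the voltage sensor, from 123, 132, 159 and 159 to 849, 595, 664 and 685 (log2 fold change 2.27, standard error 0.13, adjusted p = 8.02e-06).

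Ion channels of the fibre membrane gave 4 higher and 3 lower of 20. Kcnn3, the SK3 potassium channel of denervated and embryonic muscle, rose from 0.788, 0.833, 0.885 and 0.991 to 6.38, 9.89, 16.3 and 17.1 (log2 fold change 2.75, standard error 0.26, adjusted p = 8.99e-05), and Kcnj11, the pore of the ATP-sensitive channel, by 0.91 on the log2 scale. Panx1, a pannexin that lets ATP out of cells, rose from 1.69, 1.96, 1.503 and 2.08 to 19.6, 13.1, 15.8 and 17.6 (log2 fold change 2.63, standard error 0.13, adjusted p = 3.76e-06). Tmem233, a membrane protein, fell from 26.4, 22.2, 19.7 and 21.03 to 0.527, 1.33, 1.24 and 0.526 (log2 fold change -3.63, standard error 0.17, adjusted p = 3.72e-06), with day 0 at 91.9–107. The sodium pump subunit Atp1b2 fell from 26.5–31.3 to 4.14–5.68 (log2 fold change -2.35), and the chloride channel Clcn1, which sets the resting conductance, had a log2 fold change of -0.61 that was not past the thresholds without D3a or D3b.

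Of 29 tested genes of glycolysis and glycogen use, 15 were lower and 2 higher, with a median log2 fold change of -0.65, and the count of lower genes was 14 to 17 over all other fits. Eno3, muscle enolase, had an FPKM of 2157, 2214, 1909 and 1742 at 1 d and 419, 381, 329.7 and 372 at 3 d, 5.34-fold lower by the means (log2 fold change -2.41, standard error 0.11, adjusted p = 3.76e-06). Tpi1, triosephosphate isomerase, fell from 598, 593, 474 and 471 to 110.4, 135, 95.3 and 99.5 (log2 fold change -2.27, standard error 0.13, adjusted p = 8.50e-06). Gpd1, which links glycolysis to lipid synthesis, Pfkfb1, a regulator of phosphofructokinase, the lactate dehydrogenase Ldhb and Phkg1, the catalytic subunit of phosphorylase kinase, fell by 2.39, 2.22, 2.19 and 2.19 on the log2 scale. Slc2a4, the insulin-regulated glucose transporter, fell by 1.53 on the log2 scale. Members that rose were Hk2, the hexokinase (log2 fold change 0.76, lost after quantile normalization), and Ugp2, which makes UDP-glucose (log2 fold change 0.81, from 494, 476, 576 and 554 to 1254, 857, 767 and 871). Gapdh, often used as a reference gene, was at 170.3, 175, 167 and 142 and 143, 126, 108 and 114, a log2 fold change of -0.41 (adjusted p = 0.0175) below the 1.5-fold threshold, and was called lower after quantile normalization (log2 fold change -0.69).

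Fewer genes of oxidative metabolism were called. Of 35 genes of fatty acid oxidation and the citric acid cycle, 10 were lower and 1 higher (median -0.37), and 17 were lower after quantile normalization. Idh2, the mitochondrial NADP-dependent isocitrate dehydrogenase, fell from 51.3, 77.6, 84.9 and 72.7 to 7.79, 18.4, 16.8 and 15.6 (log2 fold change -2.25, standard error 0.25, adjusted p = 2.23e-04), and Lpl, lipoprotein lipase, from 52.4, 67.2, 70.3 and 63.98 to 13.1, 20.3, 23.4 and 14.7 (log2 fold change -1.80). Acadm, the medium-chain dehydrogenase, Cs, citrate synthase, and Fabp3, the fatty acid carrier of muscle, fell by 1.16, 0.86 and 0.84 on the log2 scale. Hadhb, of the trifunctional protein, was the member called higher (log2 fold change 0.70), and this was lost after quantile normalization. Among regulators, Perm1, a muscle partner of PGC-1, fell from 11.5, 10.1, 8.27 and 8.87 to 4.84, 4.06, 1.15 and 1.59 (log2 fold change -1.57), Ppard fell back from 7.57–8.15 to 3.11–3.73 (log2 fold change -1.01) and Esrrg rose by 0.65 on the log2 scale, a call lost without D3d. Of the 13 mRNAs encoded by mitochondrial DNA, 2 were called lower, mt-Nd2 (log2 fold change -0.64) and mt-Nd4l (log2 fold change -0.59), and these calls were lost in 12 and 13 of 21 other fits, including those without any 1 sample except D3a for mt-Nd2 and except D1d for mt-Nd4l. The mitochondrial share of fragments, given above, moved with them, and its part in these values was not tested.

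**Figure D3:**
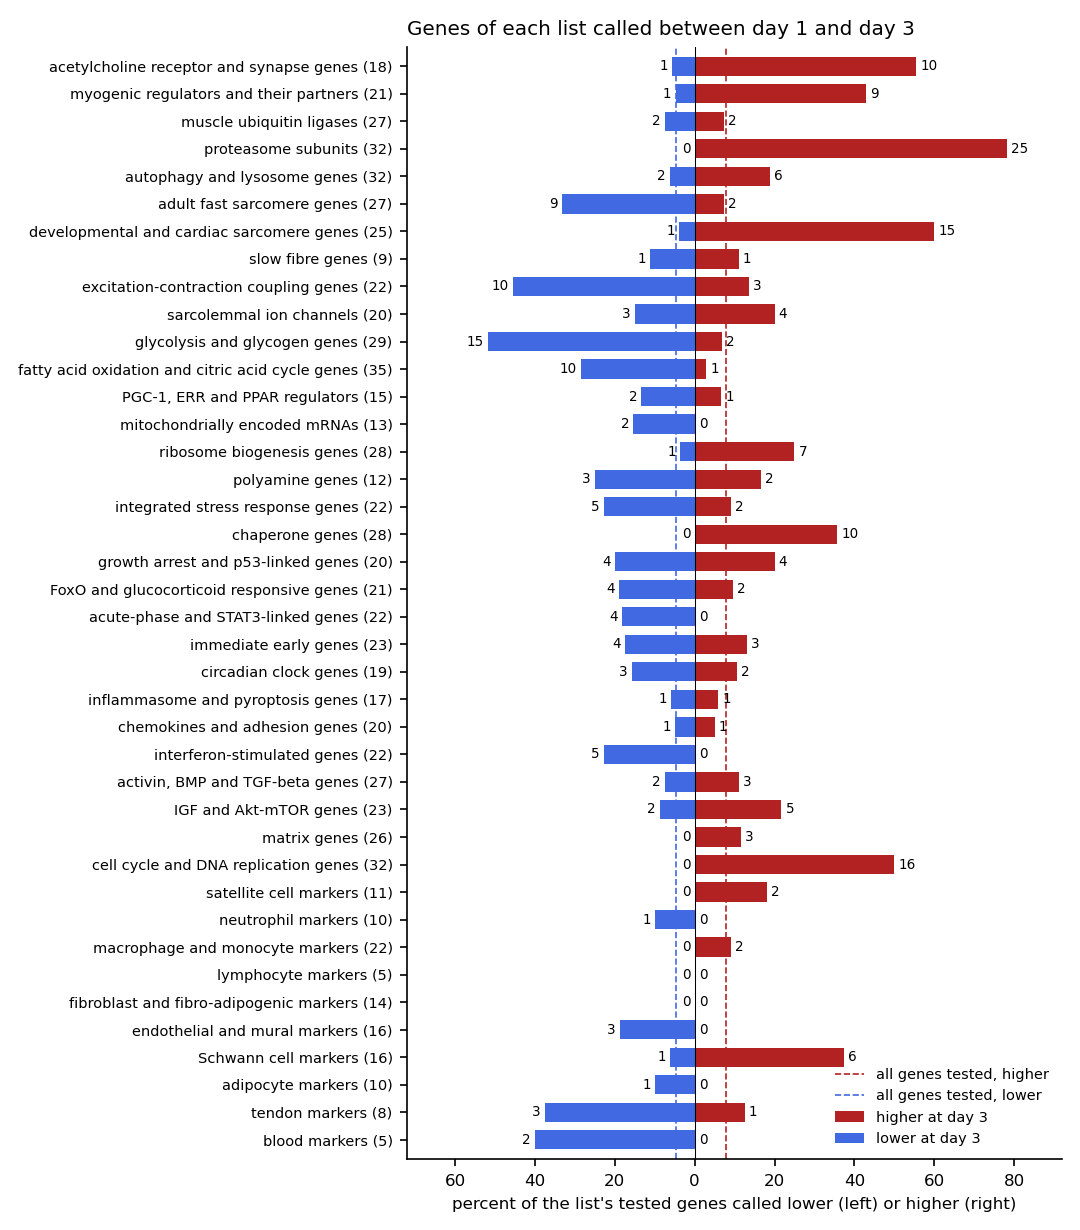
Percent of the tested genes of each list that were called higher (red, right) or lower (blue, left) at day 3 than at day 1, with the number of genes at the end of each bar and the number tested in parentheses. Dashed lines show the same percent over all 17596 tested genes, 7.75% higher and 4.59% lower. Proteasome subunits (25 of 32), developmental sarcomere genes (15 of 25) and synapse genes (10 of 18) reach furthest to the right, and glycolysis (15 of 29) and excitation-contraction coupling genes (10 of 22) furthest to the left. The bars to the right also count Chrng, Krt8, Mymk and Olig1, which passed the filter only through the samples of day 3.

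In proteolysis, 25 of 32 proteasome subunits rose, while muscle ubiquitin ligases gave few calls. The proteasome, the barrel-shaped protease that degrades ubiquitin-tagged proteins, had 7 tested subunits that did not pass and 0 lower (median log2 fold change 0.85). After quantile normalization 17 were higher and 1 lower. Psme4, the proteasome activator PA200, named after its values were seen, was the member with a negative value, at 59.5, 61.2, 60.6 and 59.3 at 1 d and 49.3, 38.6, 46.04 and 45.5 at 3 d, where every sample of 3 d lay below every one of 1 d (log2 fold change -0.42, adjusted p = 0.0037, below the 1.5-fold threshold). Summed over the list, the FPKM was 2300 to 2420 at 1 d and 3907 to 5219 at 3 d, with D3a highest. Its core subunit Psmb5, which carries the chymotrypsin-like activity, rose from 37.8, 38.7, 39.8 and 44.9 to 118, 104, 91.9 and 102 (log2 fold change 1.35, standard error 0.09, adjusted p = 1.47e-05), and the ATPase subunit Psmc4 from 53.2, 52.7, 57.01 and 55.9 to 174, 129, 123 and 134 (log2 fold change 1.33, standard error 0.11, adjusted p = 3.51e-05). Psmb3, Psmd8 and Psmd2 rose by 1.30, 1.24 and 1.22 on the log2 scale.

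Of 27 muscle ubiquitin ligases and their adaptors, 2 were higher and 2 lower. Trim63, or MuRF1, which tags myosin, had 896, 902, 1142 and 1159 FPKM at 1 d and 1590, 1114, 1168 and 1184 at 3 d, from 76.1–107 at day 0. The difference between 1 d and 3 d did not pass (log2 fold change 0.30, standard error 0.15, adjusted p = 0.178). Fbxo32, or Atrogin-1, was listed at 0.903–1.92 at 1 d and 0.4799–1.32 at 3 d (adjusted p = 0.208), with day 0 at 0.791–1.14. Klhl40 and Klhl41, Kelch proteins that stabilize thin filaments, rose from 28.7–39.9 to 86.5–97.9 and from 144–176 to 255–362 (log2 fold changes 1.35 and 0.83), and the call of Klhl41 was lost after quantile normalization. Fbxl22 and Kbtbd13 fell by 1.29 and 1.06 on the log2 scale.

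In autophagy and the lysosome, 6 of 32 genes were higher and 2 lower. The higher count was 2 after quantile normalization and 10 without D3a. Map1lc3a, which coats autophagosomes, rose from 124, 139, 133 and 134 to 266, 304, 300.5 and 342 (log2 fold change 1.18, standard error 0.09, adjusted p = 2.33e-05), and Wipi1, an early autophagosome protein, by 1.04 on the log2 scale. The kinases that start autophagy went down. Ulk1 had its highest values at 1 d (41.2, 36.7, 38.5 and 45.9) and was at 11.9, 9.74, 12.4 and 11.04 at 3 d (log2 fold change -1.76, standard error 0.09, adjusted p = 5.82e-06), within the range of day 0 (9.26–12.8), and Ulk2 fell by 0.63 on the log2 scale.

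Some genes that make and fold proteins rose. Of 28 ribosome biogenesis genes, 7 were higher and 1 lower (median 0.43), with 3 higher after quantile normalization. Bop1, of the large subunit processing complex, rose from 9.87–12.5 to 22.7–29.2 (log2 fold change 1.13), nucleolin (Ncl) by 0.84 on the log2 scale and Polr1a, the catalytic subunit of RNA polymerase I, by 0.75. Among chaperones, 10 of 28 were higher and 0 lower (median 0.40; 1 was lower without D3a and 2 without D3d), led by small heat shock proteins of muscle. Cryab, which protects desmin and titin, went from 279, 278, 337 and 279 to 1570, 2166, 2110 and 2022 (log2 fold change 2.73, standard error 0.13, adjusted p = 3.72e-06), and Hspb8, a partner in chaperone-assisted autophagy, from 388, 358, 324 and 298 to 2252, 1991, 2167 and 2271 (log2 fold change 2.67, standard error 0.11, adjusted p = 2.64e-06). Hspb7 and Hspb1 rose by 1.86 and 1.28 on the log2 scale, and Hspa5 (BiP) of the endoplasmic reticulum by 1.00.

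Of 12 tested polyamine genes, 2 were higher, 3 were lower and 7 did not pass (median log2 fold change -0.13). Odc1, ornithine decarboxylase, which makes putrescine, rose from 115, 102, 116 and 108 to 227, 186, 233 and 258 (log2 fold change 1.02, standard error 0.10, adjusted p = 1.13e-04), and Azin1, which protects it from degradation, by 0.73 on the log2 scale. Amd1, which supplies the aminopropyl donor for spermidine and spermine, fell from 356, 362, 199 and 166 to 59.8, 40.1, 43.2 and 49.1 (log2 fold change -2.40, standard error 0.26, adjusted p = 1.79e-04), and its near copy Amd2, whose reads cannot be fully told apart from those of Amd1, by 1.79 on the log2 scale. Smox, spermine oxidase, fell from 47.2, 44.6, 38.9 and 35.4 to 11.1, 10.6, 10.8 and 11.7 (log2 fold change -1.81, standard error 0.09, adjusted p = 4.95e-06).

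Some stress genes that were high at 1 d had fallen by 3 d. Of 22 targets of the integrated stress response, 5 were lower and 2 higher. Trib3, a pseudokinase induced by Atf4, was at 4.18, 3.73, 4.96 and 5.44 at 1 d and 1.38, 1.29, 1.21 and 0.837 at 3 d (log2 fold change -1.35, standard error 0.13, adjusted p = 9.75e-05), with day 0 at 1.14–1.39, and Chac1, which degrades glutathione, fell from 65.6, 80.5, 54.3 and 71.4 to 15.99, 22.8, 25.1 and 25.8 (log2 fold change -1.57). The higher members were the translation inhibitor Eif4ebp1 (82.7–106 to 177–273) and the amino acid transporter Slc7a5 (log2 fold change 1.42). Among 20 growth arrest and p53-linked genes, 4 were higher and 4 lower. Gadd45a rose further, from 51.7, 57.3, 39.6 and 37.2 to 195, 181, 209 and 208 (log2 fold change 2.09, standard error 0.14, adjusted p = 1.37e-05; day 0 at 2.28–6.28), and the cell cycle inhibitor Cdkn1a by 1.06 on the log2 scale, whereas Gadd45g fell from 76.5, 58.8, 86.5 and 99.4 to 7.46, 13.2, 11.5 and 11.5 (log2 fold change -2.77, standard error 0.19, adjusted p = 1.91e-05), below day 0 (23.1–39.6). Members of the same stress family thus moved in opposite directions over the same interval.

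Immediate early genes, which respond within hours to activity or injury, gave 3 higher and 4 lower of 23. The orphan nuclear receptors of this class fell together. Nr4a3 went from 12.5, 7.805, 9.25 and 8.31 to 0.883, 0.649, 0.441 and 0.851 (log2 fold change -2.61, standard error 0.15, adjusted p = 8.50e-06), overlapping day 0 (0.575–1.11), and Nr4a1 and Nr4a2 fell by 1.48 and 1.44 on the log2 scale. The matricellular Ccn1 and Ccn2, which answer to mechanical load, rose from 17.8, 16.6, 21.6 and 25.6 to 41.4, 88.05, 111 and 115 and from 6.301, 4.32, 5.73 and 7.24 to 8.1, 19.7, 33.2 and 30.2 (log2 fold changes 1.99 and 1.64), with D3a the lowest of its group in both. Of 22 acute-phase and STAT3-linked genes, 4 were lower and 0 higher, with 1 higher without D1a or D3c. Lcn2, lipocalin 2, stood at 0.128–0.432 at day 0, 50.9, 42.2, 39.1 and 34.1 at 1 d and 21.6, 24.8, 9.09 and 14.5 at 3 d (log2 fold change -1.28, adjusted p = 0.00728), and Fgl2 and Saa3 fell by 1.24 and 1.47 on the log2 scale.

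Of 21 genes that respond to FoxO factors or glucocorticoids, 4 were lower and 2 higher. Klf9 fell from 100.1, 102, 103 and 119.8 to 56.2, 52.5, 52.6 and 49.7 (log2 fold change -0.99, standard error 0.07, adjusted p = 2.87e-05), within the range of day 0 (49.1–59.5), and Mstn, myostatin, which limits muscle growth, from 32.8, 36.4, 37.4 and 37.1 to 24.9, 14.96, 20.8 and 17.8 (log2 fold change -0.86). Mt1, metallothionein 1, rose from 199.6, 104, 174 and 214 to 545, 491, 282 and 340.5 (log2 fold change 1.26, adjusted p = 0.00765), after 6.99–9.41 at day 0. In the clock list, 2 of 19 were higher and 3 lower. Nfil3, a repressor of clock outputs that also answers to cytokines, fell from 35.4, 24.7, 44.9 and 43.3 to 5.897, 10.5, 5.79 and 5.94 (log2 fold change -2.25, standard error 0.22, adjusted p = 1.16e-04). Per2, a repressor of the core clock, rose from 1.996–3.09 to 5.502–7.76 (log2 fold change 1.18) and its activator Arntl fell by 0.78 on the log2 scale. The hour of sampling is not given in the sources used here, so its part in the clock genes was not tested.

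**Figure D4:**
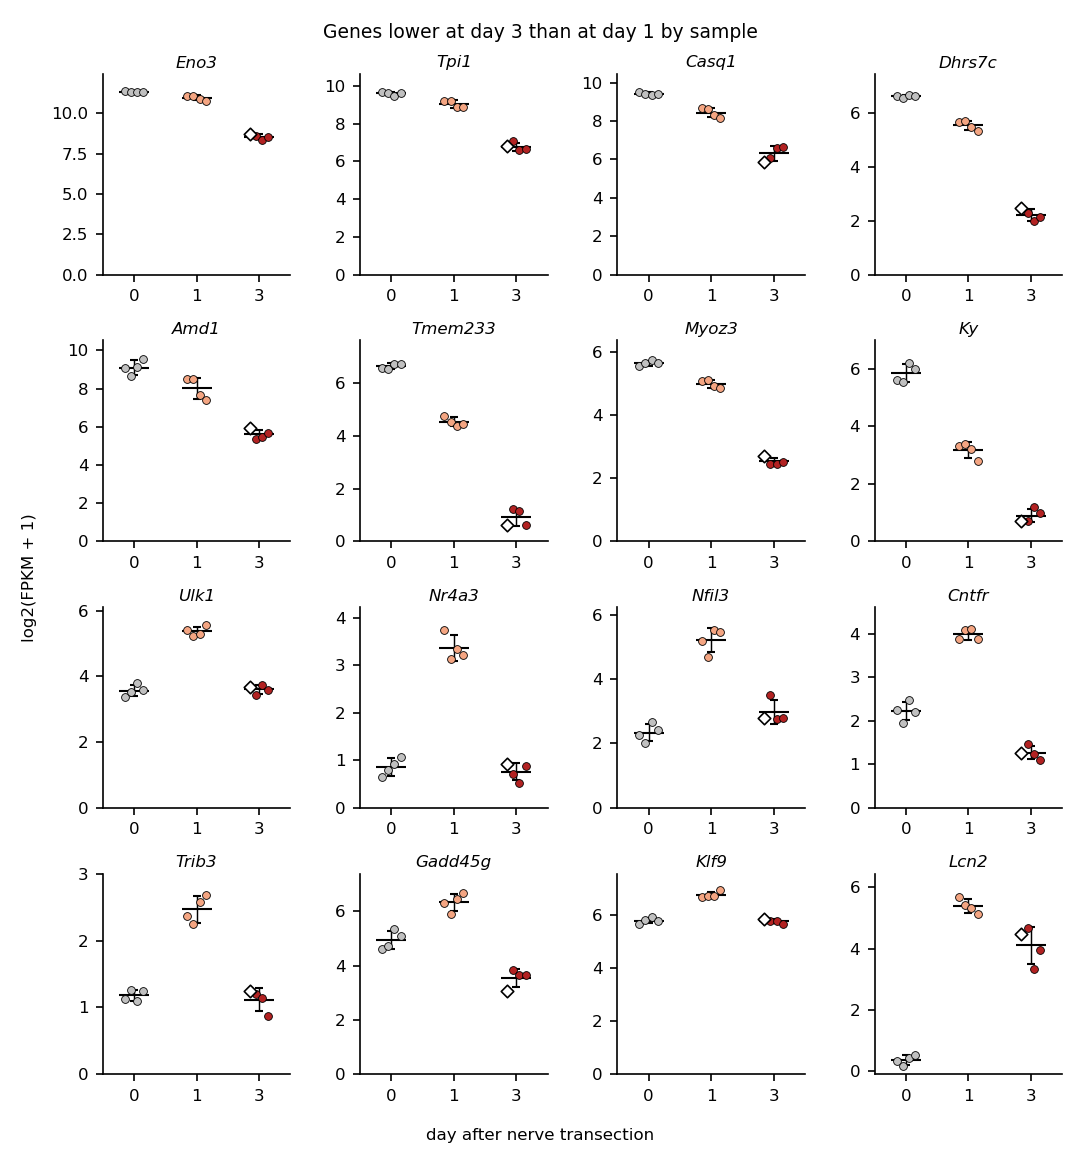
Level of 16 genes called lower at day 3 than at day 1, on log2(FPKM + 1), in each sample at day 0, 1 and 3. Points are samples, the open diamond is D3a, and bars show the mean and SD of 4 samples. The upper 8 genes, of metabolism, calcium handling, polyamines and the sarcomere, were already lower at day 1 than at day 0 in their means, and the lower 8, of stress and signalling, had their highest mean at day 1.

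Growth factor genes moved in both directions. Of 23 genes of IGF and Akt-mTOR signalling, 5 were higher and 2 lower, and 8 were higher without D3a and 3 after quantile normalization. Akt1 rose from 21.1, 20.9, 26.3 and 29.1 to 68.7, 62.4, 57.2 and 56.6 (log2 fold change 1.30, standard error 0.12, adjusted p = 6.64e-05), and Igf2r, the clearance receptor, from 10.4–12.8 to 22.8–29.9 (log2 fold change 1.13). H19, a noncoding RNA of the imprinted Igf2 locus, rose from 123, 139, 112 and 100 to 269.6, 422, 481 and 493 (log2 fold change 1.78, standard error 0.19, adjusted p = 1.79e-04). The insulin receptor substrates fell, Irs1 from 13.4, 11.7, 10.2 and 8.42 to 4.27, 4.29, 2.22 and 1.96 (log2 fold change -1.54, standard error 0.22, adjusted p = 9.28e-04) and Irs2 by 0.83 on the log2 scale, and the call of Irs2 was lost in 3 of 21 other fits, 2 of them without D1c or D3d. In the activin, BMP and TGF-beta list, 3 of 27 were higher and 2 lower, near the shares over all tested genes (7.75% and 4.59%). Without D3a 6 were higher, and 4 were lower after rescaling to TPM without mitochondrial genes. Gdf5, a BMP ligand known to be induced in denervated muscle, rose from 2.25, 2.52, 4.49 and 3.26 to 12.1, 10.5, 13.4 and 13.97 (log2 fold change 1.73, standard error 0.17, adjusted p = 9.51e-05), from 0–0.109 at day 0. Tgfb2 rose by 0.85 on the log2 scale, and Acvr2a, a receptor for myostatin and activin, fell from 14.3–18.9 to 8.54–10 (log2 fold change -0.77). Cntfr, the receptor for ciliary neurotrophic factor, which Schwann cells release, had its highest values at 1 d (13.8, 16.1, 16.4 and 13.8) and was at 1.38, 1.78, 1.37 and 1.15 at 3 d (log2 fold change -2.73, standard error 0.10, adjusted p = 2.34e-06).

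Of 32 tested genes of DNA replication and mitosis, 16 were higher, 0 were lower and 16 did not pass (median 0.74). Of these genes, 20 were higher without D3a, and 5 were higher when an FPKM of 1 or more in 4 samples was required. Mki67, a marker of cycling cells, had an FPKM of 0.245, 0.142, 0.228 and 0.325 at 1 d and 0.578, 3.94, 3.77 and 2.43 at 3 d (log2 fold change 1.45, adjusted p = 0.00944), and Top2a was at 0.164, 0.137, 0.2203 and 0.282 and 0.5505, 3.24, 3.17 and 1.88 (log2 fold change 1.31, adjusted p = 0.0086). D3a was the lowest of its group in both and D3b the highest. Rrm2, the regulated subunit of ribonucleotide reductase, rose in all 4 samples, from 0.9403, 0.563, 0.784 and 0.546 to 10.8, 25.6, 9.31 and 17.1 (log2 fold change 3.19, standard error 0.27, adjusted p = 4.99e-05). Of 11 tested satellite cell markers (the stem cells of muscle), 2 were higher and 0 lower. In other fits 1 was lower without D1b, D1d, D3a or D3d, 2 after rescaling to TPM without mitochondrial genes and 3 with limma-voom on recovered fragments. The 2 higher were Megf10 (from 0.157–0.227 to 0.795–1.597, log2 fold change 0.92) and Itga7 (log2 fold change 0.63). The call of Itga7 was lost after quantile normalization and without D1a, D1b, D3b or D3d. Myf5, listed with them, was at 1.18, 1.28, 1.43 and 1.16 and 1.32, 1.44, 1.03 and 1.85 (adjusted p = 0.66).

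The molecules of the NLRP3 inflammasome and pyroptosis, which the study followed at later times, did not pass the test between 1 d and 3 d. Nlrp3 had an FPKM of 0.608, 0.3204, 0.321 and 1.01 at 1 d, or 20 to 68 fragments, and 0.0644, 0.339, 0.303 and 0.161 at 3 d, or 4 to 23 fragments (log2 fold change -0.35, standard error 0.14, adjusted p = 0.111). Casp1 was at 1.12, 1.14, 1.13 and 1.99 and 0.708, 1.58, 1.78 and 1.06 (adjusted p = 0.876), Gsdmd at 3.29, 3.44, 3.603 and 5.38 and 2.06, 4.68, 4.93 and 3.71 (adjusted p = 0.895), and Pycard, which encodes ASC, at 0.1796–0.556 and 0.137–0.727 (adjusted p = 0.499). Il1b spread over a wide range at 1 d, at 4.32, 0.204, 0.976 and 7.94, against 0.171, 0.564, 0.612 and 0.2797 at 3 d (log2 fold change -1.23, standard error 0.55, adjusted p = 0.137). Il1b was called lower without D1b (log2 fold change -1.71, adjusted p = 0.028) and in the fit of all 32 samples. Il18 was at 1.23, 1.198, 1.62 and 3.82 and 1.27, 2.55, 2.8 and 1.897 (adjusted p = 0.773). Sample D1d was the highest of the 1 d group in Nlrp3, Casp1, Gsdmd, Il1b and Il18. In the whole list, 1 of 17 was higher (Panx1), with 3 higher without D3a and 2 lower without D1b. The gene called lower was Txnip, which is known to bind NLRP3 and stood at 214, 225, 214 and 223 and 124, 167, 125 and 111 (log2 fold change -0.75, standard error 0.12, adjusted p = 0.00142).

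Immune cell transcripts differed between the samples of 3 d. Of 22 macrophage and monocyte markers, 2 were higher with all 4 samples and 13 without D3a (10.4% of all tested genes were called higher in that fit). Summed over the list, the FPKM was 313 to 524 at 1 d, 360 in D3a and 684 to 1314 in D3b, D3c and D3d. Lyz2, lysozyme of myeloid cells and the most abundant member, was at 139, 139, 130.2 and 205 at 1 d and 104, 617, 596 and 277 at 3 d (adjusted p = 0.151). Cd68, a lysosomal membrane protein of macrophages, rose in every sample including D3a, from 14.8, 11.6, 18.5 and 28.7 to 133, 155, 109 and 94.1 (log2 fold change 2.72, standard error 0.26, adjusted p = 8.30e-05). Gpnmb rose by 1.06 on the log2 scale but lost its call in 3 of 21 other fits, 2 of them without D1b or D1c, where 1 macrophage marker was called.

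Of 10 tested neutrophil markers, 1 was lower, Mmp9 (3.65–5.54 to 1.57–2.92, log2 fold change -0.86), and 6 were lower without D1b, while 1 was higher without D1d. Of 5 tested lymphocyte markers 0 were called, with summed levels of 0.438 to 1.96 FPKM over the 8 samples. Chemokines and adhesion molecules gave 1 higher (Cxcl14) and 1 lower (Cxcl9) of 20. The call of Cxcl14 was lost after quantile normalization and without D1b, and that of Cxcl9 without D3b, D3c or D3d. Without D1b or after quantile normalization 3 members were lower, and without D1d 2 were higher. Interferon-stimulated genes gave 5 lower and 0 higher of 22 (median -0.60). The count was 2 without D3a, D3d or D1c and 3 without D3b, and after median-ratio scaling it was 11. Isg15 was at 4.21, 3.61, 7.68 and 28.9 at 1 d and 0.0929, 2.21, 1.57 and 2.11 at 3 d, where D1d and D3a are the extremes, and its call was lost in 7 of 21 other fits, among them those without D1c or any 1 sample of 3 d. Gbp2 fell from 6.64–12.2 to 2.36–5.27 (log2 fold change -0.93).

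**Figure D5:**
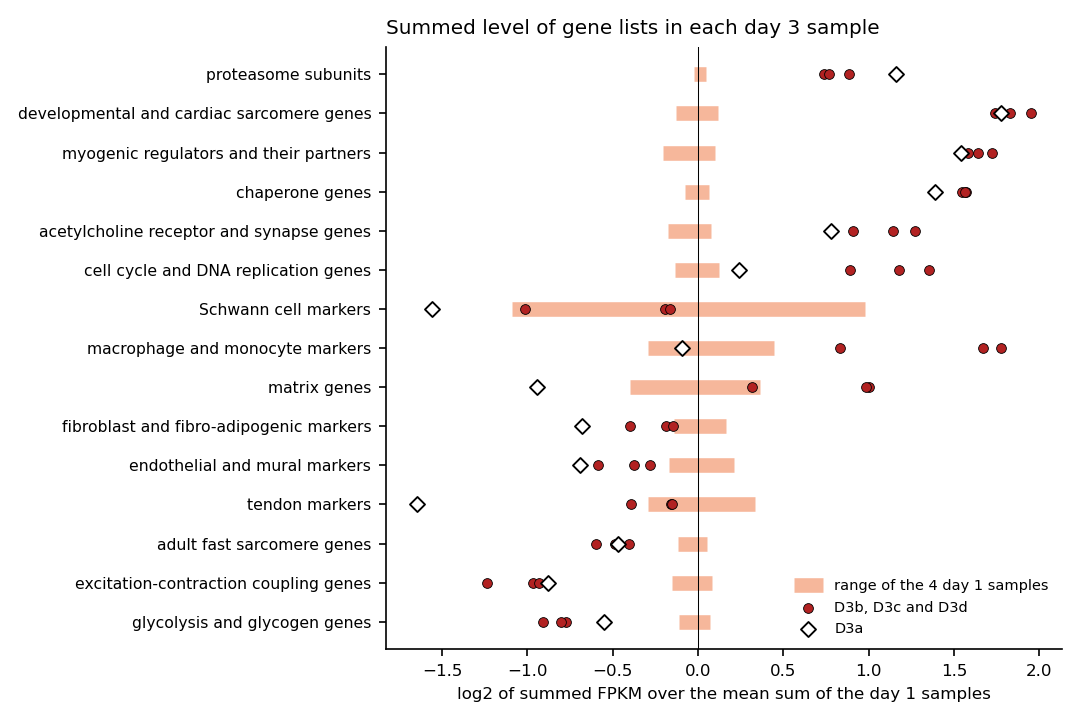
Summed FPKM of 15 gene lists in each sample of day 3, as log2 of its ratio to the mean sum of the 4 samples of day 1. Shaded bars span the samples of day 1, filled points are D3b, D3c and D3d, and open diamonds are D3a. D3a lies on the same side of day 1 as the others for the muscle, proteasome and chaperone lists, within the day 1 range for macrophage markers (360 against 313 to 524 FPKM) and below every day 1 sample for matrix (360) and Schwann cell lists, unlike the others. For the fibroblast and endothelial lists all 4 samples of day 3 lie below day 1, and for the tendon list D3a and D3c do.

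Matrix genes differed between the samples of 3 d as well. Of 26 tested, 3 were higher and 0 lower with all samples, with 14 higher without D3a and 2 lower after quantile normalization. The sum over the list was 524 to 890 FPKM at 1 d, 360 in D3a and 862 to 1388 in the other 3 samples. Postn, periostin, was at 2.26, 1.55, 1.63 and 2.74 at 1 d and 2.74, 51.9, 38.2 and 25.8 at 3 d, where D3a lay inside the range of 1 d (log2 fold change 2.83, adjusted p = 0.0169). Tnc, tenascin C, rose in all 4 samples, from 2.53, 1.63, 2.36 and 3.06 to 3.91, 10.9, 8.17 and 7.44 (log2 fold change 1.29, adjusted p = 0.00504). Spp1, osteopontin, was at 11.8, 4.65, 3.92 and 32.2 and 19.1, 134, 84.97 and 33.6, and its call was lost in 8 of 21 other fits, among them those without any 1 sample except D1d or D3a. Fibroblast markers gave 0 calls of 14 with all samples and 4 higher without D3a, with 1 lower without D1a, D1b, D3b or D3c and 2 lower after median-ratio scaling or quantile normalization. Endothelial and mural markers gave 3 lower of 16 (Cdh5, Cldn5 and Kdr, by 0.76, 0.85 and 0.59 on the log2 scale) and 0 higher. The lower count was 6 after quantile normalization or without D3c and 7 after rescaling to TPM without mitochondrial genes, and Kdr was lost without D1d or D3d.

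Markers of nerve and tendon moved in both directions. Of 16 Schwann cell markers, 6 were higher and 1 lower, with 2 lower without D1b or D1c. Ngfr, the p75 neurotrophin receptor of repair Schwann cells, rose from 0.9196, 1.02, 1.15 and 2.04 to 5.87, 15.3, 17.8 and 9.06 (log2 fold change 2.43, standard error 0.31, adjusted p = 4.37e-04). Gap43 and Cdh19 rose by 0.94 and 1.69 on the log2 scale, and Gdnf, the trophic factor for motor neurons, from 1.19, 1.17, 1.18 and 1.63 to 1.96, 4.33, 3.33 and 2.32 (log2 fold change 0.76, adjusted p = 0.0131). Olig1 had 0 fragments in each sample of 1 d and 0.393–0.625 FPKM at 3 d, at least 5.69-fold higher against 3 fragments per sample. It is counted among the 6 although it passed the filter only through the samples of 3 d, and it was not called after median-ratio scaling.

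Of 8 tendon markers, 3 were lower (Tnmd, Fmod and Chad, by 1.94, 1.19 and 1.35 on the log2 scale, with Chad lost without D1b, D1c or D3b), and Scx, the transcription factor of tendon progenitors, was higher, from 3.09, 3.66, 4.14 and 3.02 to 7.81, 19.7, 19.4 and 26.99 (log2 fold change 2.01, standard error 0.31, adjusted p = 0.00129). The summed level of the tendon list was 172 to 266 FPKM at 1 d, 67.3 in D3a and 161 to 189.9 in the other samples of 3 d. Of 5 tested blood markers, 2 globin genes were called lower, Hba-a1 and Hbb-bt, and these calls were lost in 10 and 7 of 21 other fits, those without D1a, D1b, D3b or D3d in both. Of 10 adipocyte markers, 1 was lower, the lipid droplet coat Plin4 (log2 fold change -0.89), with 3 lower without D3c, while the summed level ranged over 241 to 472 FPKM at 1 d and 148 to 368 at 3 d. The part of cell composition in these results was not tested.

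Some of the largest changes fell outside the lists. Ces2c, a carboxylesterase, rose from 0.674, 0.594, 0.702 and 0.316 to 24.3, 24.8, 29.99 and 31.6 (log2 fold change 4.19, standard error 0.12, adjusted p = 6.39e-07), with the samples of 3 d close to each other. Rrad, a small GTPase that restrains calcium channels, went from 10.1, 5.52, 4.17 and 4.07 to 68.2, 50.5, 133 and 152 (log2 fold change 3.81), and Aif1l, an actin-binding protein, from 0.978, 0.774, 1.14 and 1.47 to 12.6, 22.3, 30.01 and 35.1 (log2 fold change 3.56). Cpne2, a calcium-dependent phospholipid-binding protein, and Dupd1, a dual specificity phosphatase of muscle, rose by 3.21 and 3.14 on the log2 scale. Myl12a, a light chain of nonmuscle myosin, rose from 11.7, 13.1, 13.2 and 14.96 to 122, 127, 126 and 127 (log2 fold change 3.15, standard error 0.07, adjusted p = 2.01e-07), and its exons overlap those of its neighbour Myl12b by 462 bases, so reads of the pair may be split between them. Exons of Myl12a also overlap those of Myom1 on the other strand by 207 bases, and exons of Rrad and Aif1l overlap antisense genes by 141 and 168 bases. Several genes described above share more bases with an antisense gene, among them Irs1 (2822), Mybph (1162), Gdf5 (936) and Txnip (606). The part of such reads in their values was not tested.

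Among the largest falls, Odf3l2 went from 19.7, 16.04, 26.4 and 32.1 to 0.785, 0.383, 0.591 and 0.3799 (log2 fold change -3.96, standard error 0.20, adjusted p = 4.52e-06). Ddit4l, an inhibitor of mTOR signalling, was at 72.8–78.3 at day 0 and fell from 62.7, 78.5, 53.9 and 56.5 to 4.59, 4.69, 6.803 and 5.32 (log2 fold change -3.33, standard error 0.14, adjusted p = 3.17e-06). Mettl21c, a lysine methyltransferase of muscle, fell from 21.6, 21.8, 11.7 and 11.5 to 1.08, 1.13, 0.571 and 0.689 (log2 fold change -3.19), Klhl33 from 13.9–19.9 to 0.531–1.09 (log2 fold change -3.19) and G0s2, which blocks triglyceride breakdown, from 23.9, 37.2, 54.9 and 50.3 to 4.27, 5.97, 7.47 and 4.08 (log2 fold change -2.69). A short second gene model named Aldoa (ENSMUSG00000114515) on chromosome 7 fell from 33.5–37.7 to 1.08–2.67 (log2 fold change -3.91), while the main aldolase gene (ENSMUSG00000030695) was at 2559, 2507, 2458 and 2282 and 2162, 1714, 1658 and 1747 (log2 fold change -0.44, standard error 0.12, adjusted p = 0.0261), below the 1.5-fold threshold. Gm12319, Gm49477, BC023105 and F830016B08Rik fell by 2.88, 2.87, 3.11 and 2.67 on the log2 scale. The last pair spread widely at 1 d, at 101, 99.2, 36.6 and 31.6 and 43.2, 33.5, 11.3 and 8.34.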

How the data were processed

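GAS muscle RNA was sequenced at 8 time points after denervation, with 4 samples at each. The deposited table holds FPKM values of 33397 genes in 32 columns, made by the authors and not changed before use. The submitters' processing notes name CASAVA, HISAT2 2.1.0, DESeq2 and the GRCm38 genome, without their roles, and the counting tool and annotation are not given in the sources used here. All 32 columns could be given a time point, and 0 were left unused for want of one.

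FPKM values were tested as log2(FPKM + 1) with limma (version 3.58.1, R 4.3.3), using its linear model and moderated statistics with an intensity-dependent prior variance, on the 8 samples of 1 d and 3 d. Genes reaching an FPKM of 0.1 in 4 or more samples were kept. A gene was called at a Benjamini-Hochberg adjusted p under 0.05 over all tested genes and a change of at least 1.5-fold on this scale, which understates the change of low genes. Fragments per gene, used for depth and for the limit of a count of 0 (3 fragments), were recovered from FPKM with GENCODE M21 exon lengths, which matched 33356 genes. The limit of 3 fragments covers counting error only. A limma-voom test on the recovered fragments was one of the alternatives. Other tables and figures were made with Python 3.11.15, pandas 2.3.3, scipy 1.17.1 and matplotlib 3.10.9. On simulated data with 100 genes changed 2-fold and 100 changed 4-fold among 17588, the test recovered 70 and 99, with 4 false calls. These counts describe the simulated data only. Whether they hold for the real samples, with the outlying D3a and many weakly expressed genes, was not tested.

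Genes named are the 15 largest rises and 15 largest falls with separated groups and a mean FPKM of at least 5 in the higher group, up to 6 called members per list and direction, the most abundant members of lists with few calls, and the molecules the study measured. Aldoa (the main gene), Atp2a1, Des, Erbb3, Etv5, Flnc, Hdac4, Id1, Id3, Lrp4, Musk, Mybph, Myf5, Myl4, Nes, Nrap, Slc2a4, Tnnt2, Trdn and Xirp1 lie outside that rule and were named after their values were seen. The members and gene lists were chosen with earlier results of these data known. Promoter sequences come from RefSeq (GRCm38.p6), and no entry was found for Chrnd. Results for some genes are not reported here.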

Additional observations from a re-analysis of the deposited data

Results flagged for a closer look

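Dixon's test was run on 92 groups of 4 samples. These groups covered some of the genes named above and left out others, such as Nfil3 and Pvalb. About 5 groups would be flagged by chance, and the test flagged 11. At 1 d, D1d stood apart in 6 of them. Its FPKM was 10.9 for Csrp3 (5.04 to 5.56 in the other samples), 0 for Chrng (0.0298 to 0.0338), 1.99 for Casp1 (1.12 to 1.14), 5.38 for Gsdmd (3.29 to 3.60), 3.82 for Il18 (1.20 to 1.62) and 506 for Myh1 (398 to 406). Krt8 at 1 d had 0.0951 in D1c and 0.0309 to 0.0360 in the others. At 3 d, D3a stood apart in 3. Its FPKM was 1590 for Trim63 (1114 to 1184 in the others), 2907 for Myh4 (2045 to 2185) and 2.17 for Gm49477 (0.493 to 0.730). The short Aldoa model had 2.67 in D3d and 1.08 to 1.31 in the others. Among the samples of 1 d, D1d also had the highest summed levels of macrophage (524 FPKM) and interferon-stimulated (183) markers.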

How the results depend on the processing

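No gene called in the lists or the text changed direction under those of the 21 other fits that included it, whereas genes that did not pass could, such as Casp1 and Gsdmd, whose log2 fold changes ranged over -0.15 to 0.08 and -0.16 to 0.16. Higher calls stayed within 1.5 times the reported 1364 in each of them. Lower calls, 807 as reported, rose to 1351 with a pseudocount of 0.1, 1405 with limma-voom on recovered fragments and 1455 after rescaling to TPM without mitochondrial genes. With no fold threshold 2787 genes were higher and 2073 lower, and at 2-fold 458 and 303. Leaving out each sample in turn gave 1213 to 1792 higher genes, the most without D3a, and 776 to 855 lower. After median-ratio scaling 1271 genes were higher and 915 lower, and after quantile normalization 1079 and 1040.

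Of 274 called genes of the lists and the text, 253 were included in every other fit and 193 were called in all 21. Another 21 fell under the filter in at least 1 fit. The call was lost in at least 1 fit by 68, after quantile normalization by 34 and without D3a by 10, and 4 more were not tested without D3a. The letters of the columns do not pair the samples: the deviations of columns with the same letter correlated at 0.09, -0.23, -0.06 and -0.10. A fit with the letter as a replicate block gave 1320 higher and 796 lower genes, and the calls of Id1, Igfn1 and Saa3 were lost in it and in no other fit.

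Of 82 counts of called list members, 41 moved by more than 1.5 times in at least 1 other fit, most of them counts of few genes, and those above are a selection. Among the rest, ion channel genes called lower were 5 after quantile normalization (3 as reported), macrophage and matrix genes called higher were 12 and 9 with sample quality weights (2 and 3), and chemokine and Schwann cell genes called lower were 4 each in the fit of all 32 samples (1 each). The median log2 fold change changed sign without D3a for slow fibre genes (-0.06 to 0.16), immediate early genes (-0.03 to 0.02), chemokines (-0.11 to 0.01) and lymphocyte markers (0.02 to -0.01), and after quantile normalization for clock genes (0.05 to -0.05) and satellite cell markers (0.08 to -0.04). Depth limits the low genes: a gene at 0 in a sample may have had up to 3 fragments there.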
